A study of Mus musculus with 686 samples.

Results

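Mesenteric adipose tissue (MAT), the fat that hangs along the gut, was compared with gonadal adipose tissue (GAT), the fat around the ovary and uterus, in mice that stayed on the ground. The comparison took every ground library labelled MAT or GAT, which gave 78 libraries (38 MAT and 40 GAT) of 457 ground libraries and 686 in all from 13 tissues. The mice were female BALB/cAnNTac of 3 or 8 months, held either as Habitat Ground Control (HGC), in flight-like cages and conditions, or as Vivarium Ground Control (VGC), in ordinary housing at 4 mice a cage. Each arm was collected in the schedule of Live Animal Return (LAR), in which the flight mice came back after 39.5 days and tissues were taken fresh 2 to 4 days later, or of the mice terminated on orbit (TERM, 22 to 24 days after launch), in which the carcass was frozen and the fat dissected after thawing. None of these mice flew. Of 40 mice, 38 gave both depots. In all, 19 MAT and 20 GAT libraries were LAR, and 19 and 20 were TERM. Length of housing, freezing and dissection all differ between LAR and TERM and cannot be told apart. Pieces above a weight limit were cut down before RNA was extracted, so a library reads a portion of a depot and whatever was dissected with it.

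Adipose depots are mixtures of adipocytes, stromal cells, vessels and immune cells. The mesentery carries lymph nodes, nerves and blood vessels between the gut and the body wall, and in rodents the pancreas lies diffusely within it, while the gonadal depot borders the ovary, the oviduct and the uterine horn. miRNAs are short RNAs that repress messenger RNAs matching their seed, bases 2 to 8, and several are nearly private to one cell type. miR-217 and the miR-216 family mark pancreatic acinar cells, miR-375 and miR-7 endocrine cells, miR-150 mature lymphocytes, miR-142 all blood cells, miR-192, miR-194 and miR-215 the gut lining along with liver or kidney, and the miR-200 family epithelium. miRNAs of the Hox clusters, miR-10 and miR-196, follow the position of a tissue along the body axis. Such miRNAs were grouped in 16 lists of 75 members, of which 73 were tested.

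The mature sequences below are those of the miRNAs the results turn on, called or shown for contrast with a called relative, printed from RefSeq with the build GRCm38.p6 and with the seed in capitals. Of 94 tested miRNAs named here or in the lists, 80 had an entry. The acinar miRNAs come from one stretch of chromosome 11, with mmu-miR-216b-5p at chr11:28746204-28746225 (+ strand), mmu-miR-216a-5p at chr11:28757018-28757039 (+ strand) and mmu-miR-217-5p at chr11:28763761-28763783 (+ strand).
mmu-miR-217-5p: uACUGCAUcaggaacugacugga
mmu-miR-216a-5p: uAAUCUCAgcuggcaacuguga
mmu-miR-216b-5p: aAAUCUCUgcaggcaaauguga

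The endocrine pair mmu-miR-7a-5p and mmu-miR-7b-5p shares a seed, and both forms also occur in neurons.
mmu-miR-7a-5p: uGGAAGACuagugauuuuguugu
mmu-miR-7b-5p: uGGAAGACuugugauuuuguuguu

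The blood cell and lymphocyte miRNAs that were called higher in MAT of TERM have a seed each.
mmu-miR-142a-3p: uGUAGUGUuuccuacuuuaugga
mmu-miR-142a-5p: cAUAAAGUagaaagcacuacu
mmu-miR-155-5p: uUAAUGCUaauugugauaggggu
mmu-miR-146a-5p: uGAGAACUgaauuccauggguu
mmu-miR-342-3p: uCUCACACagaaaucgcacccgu

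mmu-miR-192-5p and mmu-miR-215-5p share a seed but are made at different places. mmu-miR-192-5p lies at chr19:6264857-6264877 (+ strand) beside one copy of mmu-miR-194-5p at chr19:6264658-6264679 (+ strand), and mmu-miR-215-5p at chr1:185313610-185313630 (+ strand) beside the other copy at chr1:185313325-185313346 (+ strand).
mmu-miR-192-5p: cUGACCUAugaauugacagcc
mmu-miR-215-5p: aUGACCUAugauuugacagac
mmu-miR-194-5p: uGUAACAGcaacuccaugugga

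The miR-200 family has 2 seeds, one for mmu-miR-200a-3p and mmu-miR-141-3p and one for mmu-miR-200b-3p, mmu-miR-200c-3p and mmu-miR-429-3p.
mmu-miR-200a-3p: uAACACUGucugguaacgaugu
mmu-miR-141-3p: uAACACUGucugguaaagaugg
mmu-miR-200b-3p: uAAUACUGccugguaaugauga
mmu-miR-200c-3p: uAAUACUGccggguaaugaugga
mmu-miR-429-3p: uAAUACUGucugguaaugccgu

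The next set holds miRNAs that were higher in GAT and mmu-miR-10a-5p, which was not called. Here mmu-miR-196a-5p (made at chr11:96265187-96265208 (+ strand) and at chr15:102973365-102973386 (+ strand)) and mmu-miR-196b-5p (chr6:52230129-52230150 (- strand)) share a seed, as do mmu-miR-10a-5p (chr11:96317186-96317208 (+ strand)) and mmu-miR-10b-5p (chr2:74726074-74726096 (+ strand)).
mmu-miR-196a-5p: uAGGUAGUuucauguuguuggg
mmu-miR-196b-5p: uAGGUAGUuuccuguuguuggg
mmu-miR-10a-5p: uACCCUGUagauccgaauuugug
mmu-miR-10b-5p: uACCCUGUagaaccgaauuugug
mmu-miR-365-3p: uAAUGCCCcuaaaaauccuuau
mmu-miR-205-5p: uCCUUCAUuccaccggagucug
mmu-miR-202-3p: aGAGGUAUagcgcaugggaaga

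A last set stayed higher in MAT when pancreatic, lymphoid and gut miRNAs were held constant. These miRNAs are abundant in brain, though for each of them another tissue of the study also exceeded MAT, and they have a seed each.
mmu-miR-9-5p: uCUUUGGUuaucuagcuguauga
mmu-miR-137-3p: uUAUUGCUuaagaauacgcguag
mmu-miR-384-3p: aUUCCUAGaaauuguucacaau
mmu-miR-138-5p: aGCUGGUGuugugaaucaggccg

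Levels are given as counts per 1000000 counts of the same RNA class (CPM), for miRNAs per 1000000 miRNA counts. Counts on miRNAs ranged from 0.181 to 4.53 M (M for 1000000) per MAT library with a median of 2.17 M, and from 0.594 to 5.40 M per GAT library with a median of 1.86 M, so 1 CPM stood for 0.181 to 5.40 counts. A difference is the log2 of MAT over GAT from edgeR's quasi-likelihood test with arm, extraction schedule and age held constant, and a feature was called when its Benjamini-Hochberg adjusted p was under 0.05.

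Several libraries stood apart from their label, and 14 of the 78 (7 MAT and 7 GAT) came from 11 of the 44 sequencing pools. Those 11 pools had been picked in earlier work on these data, and whether whole pools or single libraries in them were exchanged could not be settled. The liver miRNA mmu-miR-122-5p reached 390812 CPM in MAT of VGC TERM mouse 5 and 350290 CPM in GAT of VGC LAR mouse 4, near its median of 349670 CPM in liver. In GAT of VGC LAR mouse 1, mmu-miR-217-5p stood at 16549.7 CPM, against 203 CPM in MAT of the same mouse. These 3 outlying libraries were in the 11 pools. Outside the pools 4 GAT libraries of LAR had mmu-miR-122-5p or the muscle miRNA mmu-miR-133a-3p above 50000 CPM, those of VGC mice 2 and 3 and of HGC mice 5 and 13. The fits were repeated without the 11 pools, which left 31 MAT and 33 GAT libraries.

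The depots differed in most of the miRNAs tested. Of 792 miRNAs tested, 454 (57.3%) were called, 248 (31.3%) higher in MAT and 206 (26%) lower, while the median difference over all miRNAs was 0.0097. Scaled to the total of 7 classes, which moved that median to 0.40, 366 were called, 298 higher and 68 lower. Without the 11 pools 478 of 762 (62.7%) were called. Within LAR 380 of 807 (47.1%) and within TERM 344 of 816 (42.2%) were called. Of 763 miRNAs tested in both, 180 were called in both, 166 of them in the same direction (90 higher in MAT and 76 lower) and 14 in opposite directions. LAR and TERM are different mice, so these are separate measurements of the same contrast. The depot difference itself differed between LAR and TERM for 156 of 792 miRNAs (19.7%) by the interaction term, and 140 of these were called with the same sign without the 11 pools.

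The miRNAs of the exocrine pancreas were higher in MAT by the widest margin of any list. All 6 members that were tested, of 7 in the list, were called higher, against 31.3% of all miRNAs (25.3% in LAR, 24.4% in TERM and 36% without the 11 pools), with a median difference of 4.94 on the log2 scale (6.13 in LAR, 3.26 in TERM, and 7.44 without the 11 pools, where the less abundant strands are near 0 in GAT). The seventh, mmu-miR-216c-5p, was at 0 in every MAT library and fell to the low-count filter. mmu-miR-217-5p ranged from 0.953 to 12450.5 CPM with a median of 5937 in MAT of LAR. In GAT of LAR it ranged from 0 to 16549.7 CPM with a median of 3.96. Its highest GAT value was the library of VGC LAR mouse 1, and the highest of the GAT libraries outside the 11 pools was 65.1 CPM, which 15 of 17 MAT libraries of LAR exceeded. In TERM the range was 1.36 to 1733 CPM with a median of 37.2 in MAT and 1.58 to 42.2 CPM with a median of 6.09 in GAT. MAT thus lay far above GAT in LAR, and in TERM most MAT libraries sat a little above GAT, with 2 well over 1000 CPM.

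The depot difference of mmu-miR-217-5p was 4.85 (SE 0.87, adjusted p = 3.55e-06) over all libraries, 6.77 (SE 1.63, adjusted p = 0.00106) in LAR and 3.64 (SE 0.72, adjusted p = 9.16e-05) in TERM. MAT was above GAT in 16 of 19 mice in each schedule. LAR and TERM differed by 3.11 with an adjusted p of 0.154, which missed the threshold. Without the 11 pools that difference was 5.77 (adjusted p = 1.16e-05). mmu-miR-216a-5p ranged from 1.91 to 21417 CPM with a median of 8135 in MAT of LAR and 3.53 to 913 CPM with a median of 28.0 in MAT of TERM, against medians of 4.23 and 4.34 CPM in GAT. mmu-miR-216b-5p had medians of 1694 CPM in MAT of LAR, 11.0 in MAT of TERM, and 1.72 and 3.02 in GAT. The less abundant strands mmu-miR-216a-3p, mmu-miR-216b-3p and mmu-miR-217-3p had medians of 74.2, 28.2 and 203 CPM in MAT of LAR, 0, 0 and 1.62 in MAT of TERM, and 0 in GAT of both schedules. The members come from one cluster and are not independent of each other.

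**Figure D1:**
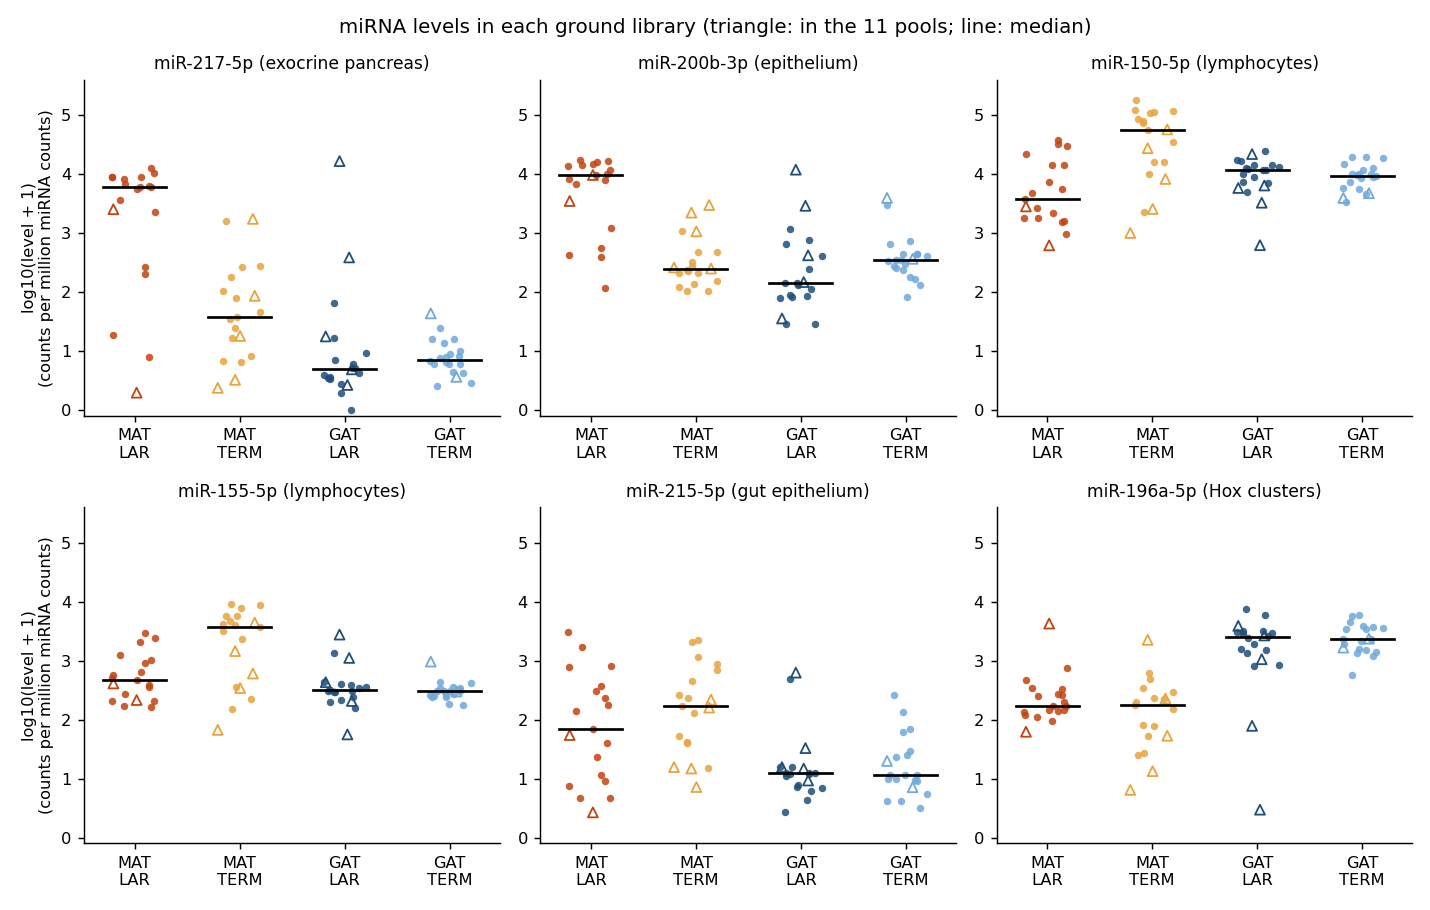
Levels of 6 marker miRNAs, 1 panel each, in every ground library of MAT and GAT, in LAR and TERM, as log10 of the level in CPM plus 1, with libraries of the 11 pools as open triangles, the rest as dots and a line at the group median. The MAT libraries of LAR form a high group in mmu-miR-217-5p, where 15 of 17 outside the pools pass every GAT library outside them, and most MAT libraries of TERM lie above the GAT libraries in mmu-miR-150-5p.

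Set against whole pancreas, the acinar signal of MAT was large in LAR and small in TERM. Outside the 11 pools, the median of MAT less that of GAT came to 39.5% to 63.3% of the median of pancreas less that of GAT over the 6 members in LAR, and to 0% to 0.315% in TERM. For mmu-miR-217-5p the medians in LAR were 6118 CPM in MAT and 13665 CPM in 16 pancreas libraries, and in TERM 41.3 CPM in MAT and 13704 CPM in 7 pancreas libraries, all from mice of 3 months. In the other 8 reference tissues its median was at most 7.39 CPM. These percentages are shares of miRNA counts. In bulk libraries, fewer cells of a type and less RNA per cell cannot be told apart.

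Endocrine miRNAs moved the same way, with all 3 called higher, against 31.3% of all miRNAs, and a median difference of 3.16 (4.71 in LAR, 2.09 in TERM and 4.71 without the 11 pools). mmu-miR-375-3p, an islet miRNA that other secretory epithelia also make, ranged from 113 to 77527 CPM with a median of 28614 in MAT of LAR and from 54.0 to 7209 CPM with a median of 477 in MAT of TERM. In GAT its medians were 115 CPM in LAR and 177 CPM in TERM, and its depot difference was 3.16 (SE 0.62, adjusted p = 1.46e-05). mmu-miR-7b-5p had the smallest p of all miRNAs higher in MAT, with medians of 431 and 33.4 CPM in MAT of LAR and TERM against 1.94 and 3.21 CPM in GAT. Its difference was 4.76 (SE 0.52, adjusted p = 4.36e-11), in LAR 5.57 and in TERM 4.05. For mmu-miR-7a-5p the difference was 2.56 (adjusted p = 2.08e-10), and MAT lay above GAT in 19 of 19 mice of TERM and 16 of 19 of LAR. In TERM mmu-miR-7a-5p stood at 11.5% and mmu-miR-7b-5p at 5.03% of the level in pancreas over GAT, above the share of any acinar member, while mmu-miR-375-3p stood at 0.610%. Pancreas is not the only reference tissue that holds mmu-miR-7a-5p. Its medians were 1900 CPM in spleen and 1153 in thymus, against 1119 in MAT of TERM outside the 11 pools.

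The lymphoid miRNAs differed more in TERM than in LAR. The interaction with schedule was called for 6 of 7 of them, against 19.7% of all miRNAs. Over all libraries it was called for 0 of 6 exocrine and 0 of 3 endocrine miRNAs. Without the 11 pools it was called for 3 of 6 and 3 of 3 of these, against 24.8% of all miRNAs. Over all libraries 6 of 7 lymphoid miRNAs were called higher in MAT with a median difference of 1.78, and without the 11 pools all 7 with a median of 2.11. In LAR 2 of 7 were called with a median of 0.48, and in TERM 6 of 7 with a median of 2.92, where 25.3% and 24.4% of all miRNAs were called higher, so the LAR count is near the share of all. mmu-miR-150-5p, which is switched on as lymphocytes mature, ranged from 1000 to 180519 CPM with a median of 56372 in MAT of TERM and from 3385 to 19802 CPM with a median of 9411 in GAT of TERM. In LAR it ranged from 616 to 38518 CPM with a median of 3787 in MAT and 619.5 to 24149.7 CPM with a median of 11742 in GAT. In TERM 12 of 19 MAT libraries lay above every GAT library of both schedules, while in LAR the MAT median was the lower of the pair and MAT was above GAT in 5 of 19 mice.

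The difference of mmu-miR-150-5p was 1.16 (SE 0.36, adjusted p = 0.00525) over all libraries, 2.41 (SE 0.39, adjusted p = 5.63e-06) in TERM and -0.11 (SE 0.45, adjusted p = 0.842) in LAR. Its interaction was -2.52 (adjusted p = 0.00224). Compared within mice, with the mouse as a block, the call over all libraries was lost, with a difference of 0.31 (SE 0.43, adjusted p = 0.551). mmu-miR-142a-3p, found in blood cells of every kind, had medians of 1224 and 5123 CPM in MAT of LAR and TERM against 269 and 263 in GAT, and was called in LAR (1.61, adjusted p = 0.00947) and in TERM (3.84, adjusted p = 9.95e-08). The other LAR call was its sister strand mmu-miR-142a-5p (1.57). mmu-miR-155-5p, induced in activated B and T cells, rose from 307 CPM in GAT of TERM to 3711 CPM in MAT of TERM in the median, a difference of 3.31 (SE 0.43, adjusted p = 1.36e-07). mmu-miR-146a-5p and mmu-miR-342-3p differed by 2.92 and 1.98 in TERM, and by 0.48 and 0.30, not called, in LAR. mmu-miR-181a-5p, most abundant in thymus, was not called over all libraries, at 0.0139, but was without the 11 pools, at 0.31 (SE 0.13, adjusted p = 0.0269), and was not when the 4 GAT libraries high in liver or muscle miRNAs were left out as well (adjusted p = 0.0628). mmu-miR-150-5p was also called without the 11 pools, at 1.24 (SE 0.37, adjusted p = 0.00274).

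Spleen gave a scale for the lymphoid miRNAs, for members whose spleen median was more than 4 times the GAT median of the same schedule. Spleen of TERM was taken fresh into a preservative before the carcass was frozen, unlike the fat, and its part in the ratio was not tested. Outside the 11 pools the MAT median less GAT was 42.7% to 195% of the spleen median less GAT for 6 of 7 members in TERM, the highest being mmu-miR-150-5p. The seventh, mmu-miR-181a-5p, had medians of 16362 CPM in MAT, 14548 in GAT and 26404 in spleen. In LAR the share was 1.32% to 12.8% for 5 members. The others in LAR were mmu-miR-150-5p, with 4788 CPM in MAT, 11970 in GAT and 45150.5 in spleen, and mmu-miR-181a-5p, with 17587, 13053 and 17309. Myeloid miRNAs did not follow. mmu-miR-223-3p, abundant in neutrophils, differed by -0.17 (SE 0.17, adjusted p = 0.396), mmu-miR-223-5p by -0.0494, and neither was called over all libraries, in LAR or in TERM. Lymph node is not among the 13 tissues, so spleen and thymus were the lymphoid references.

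**Figure D2:**
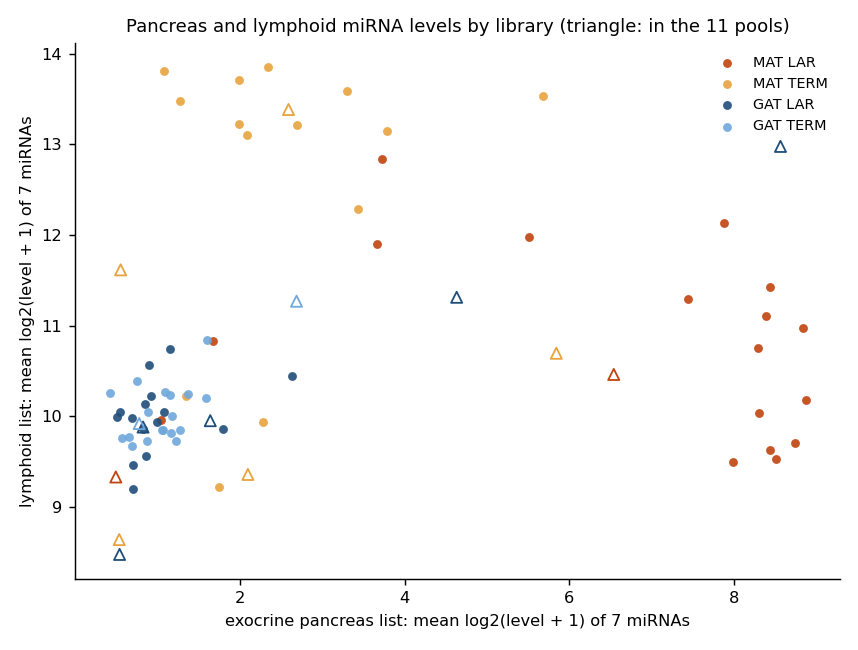
Mean log2 level of the exocrine pancreas list against that of the lymphoid list, 1 point per MAT or GAT library, with libraries of the 11 pools as open triangles. Most MAT libraries of LAR lie far along the pancreas axis and most of TERM high on the lymphoid axis, while most GAT libraries are low on both.

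The pancreatic and lymphoid levels did not vary together across MAT libraries in a way that held in each schedule. Over 38 MAT libraries, Pearson's r between the mean log2 levels of the lists was -0.26 (permutation p = 0.115, adjusted over 3 pairs 0.282) and Spearman's rho -0.14 (permutation p = 0.412). Without the 2 libraries farthest from the median r was -0.23. Without the 11 pools r was -0.47 over 31 libraries (adjusted permutation p = 0.0285) and rho -0.39 (adjusted permutation p = 0.10). Within schedules it was -0.0836 in LAR and 0.22 in TERM (19 libraries each). Leaving out the 2 farthest libraries gave -0.52 in LAR and 0.38 in TERM. The gut list gave r = 0.0826 with the exocrine list and -0.22 with the lymphoid list, with adjusted permutation p of 0.624 and 0.282. All points share 1 scaling to the miRNA total.

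Of the 5 members of the gut epithelium list, only mmu-miR-215-5p was called higher and 0 lower, where 31.3% of all miRNAs were higher and 26% lower. The list had a median difference of -0.38. mmu-miR-192-5p ranged from 554 to 23153 CPM with a median of 1639 in MAT of LAR and 309 to 87392 CPM with a median of 783 in MAT of TERM. In GAT it ranged from 84.7 to 93812 CPM with a median of 455 in LAR and 219 to 11108 CPM with a median of 791 in TERM. In TERM the groups overlapped throughout, while in LAR 11 of 20 GAT libraries lay below the lowest MAT library, and single high values stood in both depots. MAT was above GAT in 14 of 19 mice of LAR and in 11 of 19 of TERM. The fitted difference was -0.38 (SE 0.52, adjusted p = 0.553), and 0.76 (adjusted p = 0.0572) without the 11 pools and the 4 GAT libraries high in liver or muscle miRNAs. mmu-miR-192-5p is also the most abundant of the list in liver (76753 CPM) and kidney (26048 CPM), and the highest MAT and the highest GAT library are the pair named above with mmu-miR-122-5p at liver level. Pancreas also held mmu-miR-192-5p and mmu-miR-194-5p, at medians of 2387 and 716 CPM, against 1433 and 447 in MAT outside the 11 pools. A rank-sum test on CPM of all 7 classes, which changes both the test and the scaling, put mmu-miR-192-5p higher in MAT by 1.64 on the log2 scale (adjusted p = 0.00615). The paired strand mmu-miR-192-3p, mmu-miR-194-5p and mmu-miR-31-5p differed by -0.69, 0.29 and -0.47, and none was called in LAR or TERM either. In LAR mmu-miR-192-3p and mmu-miR-194-5p were also above GAT in 14 of 19 mice each.

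mmu-miR-215-5p ranged from 1.67 to 3059 CPM with a median of 69.7 in MAT of LAR and 6.18 to 2211 CPM with a median of 172 in MAT of TERM, against medians of 11.2 and 10.5 CPM in GAT. MAT lay above GAT in 17 of 19 mice of TERM and in 12 of 19 of LAR. Its difference was 3.25 (SE 0.66, adjusted p = 3.13e-05), in TERM 3.69 (SE 0.68, adjusted p = 3.29e-05), in LAR 2.39 (SE 1.12, adjusted p = 0.0766) and without the 11 pools 4.07 (SE 0.64, adjusted p = 2.06e-07). Outside the 11 pools its median was 177 CPM in MAT, and in the 9 reference tissues at most 15.7 CPM (thymus), with 13.1 CPM in liver and 9.57 CPM in pancreas. mmu-miR-215-5p thus exceeded every reference tissue, and gut is not among them. mmu-miR-194-1-3p, the other product of the mmu-miR-215-5p locus and chosen after its values were seen, differed by 2.76 (adjusted p = 3.21e-05) in the same direction. mmu-miR-192-5p, from the other locus, has the same seed and was not called.

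How much of any miRNA in MAT came from pancreas, lymph node or gut attached to the fat was not tested, and such tissue and the cells of the depot itself cannot be told apart in these libraries.

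Epithelial miRNAs rose with the pancreatic ones in LAR and not in TERM. Over all libraries 4 of 7 were called higher and 1 lower with a median of 1.77, and the same numbers without the 11 pools with a median of 2.17. In LAR 5 of 7 members of the list were called higher and 1 lower with a median of 3.28, in TERM 1 higher and 2 lower with a median of -0.69, and the interaction was called for 6. Of all miRNAs 31.3% were higher and 26% lower over all libraries, and 36% and 26.8% without the 11 pools. The shares were 25.3% and 21.8% in LAR, and 24.4% and 17.8% in TERM, where the list's counts are near them. The interaction was called for 19.7% of all miRNAs. mmu-miR-200c-3p had medians of 18734 CPM in MAT and 427 in GAT of LAR, but 988 and 948 in TERM. mmu-miR-200b-3p differed by 3.97 (SE 0.75, adjusted p = 1.08e-04) in LAR and by -0.69 (SE 0.49, adjusted p = 0.263) in TERM. mmu-miR-429-3p was not called over all libraries (1.11, adjusted p = 0.0938) but was within mice (1.67, adjusted p = 0.0304). mmu-miR-141-3p was the member called higher in both (4.92 and 0.98). In LAR outside the 11 pools, MAT less GAT came to 37.8% to 67.3% of pancreas less GAT for the 5 miR-200 members, a range that overlaps that of the acinar miRNAs. mmu-miR-205-5p, a miRNA of stratified and glandular epithelium such as skin and mammary gland, went the other way. It ranged from 332 to 6346 CPM with a median of 1704 in GAT of TERM and 22.4 to 12178 CPM with a median of 83.1 in MAT of TERM, with medians of 588 and 87.1 CPM in LAR, a difference of -2.71 (SE 0.52, adjusted p = 1.24e-05).

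**Figure D3:**
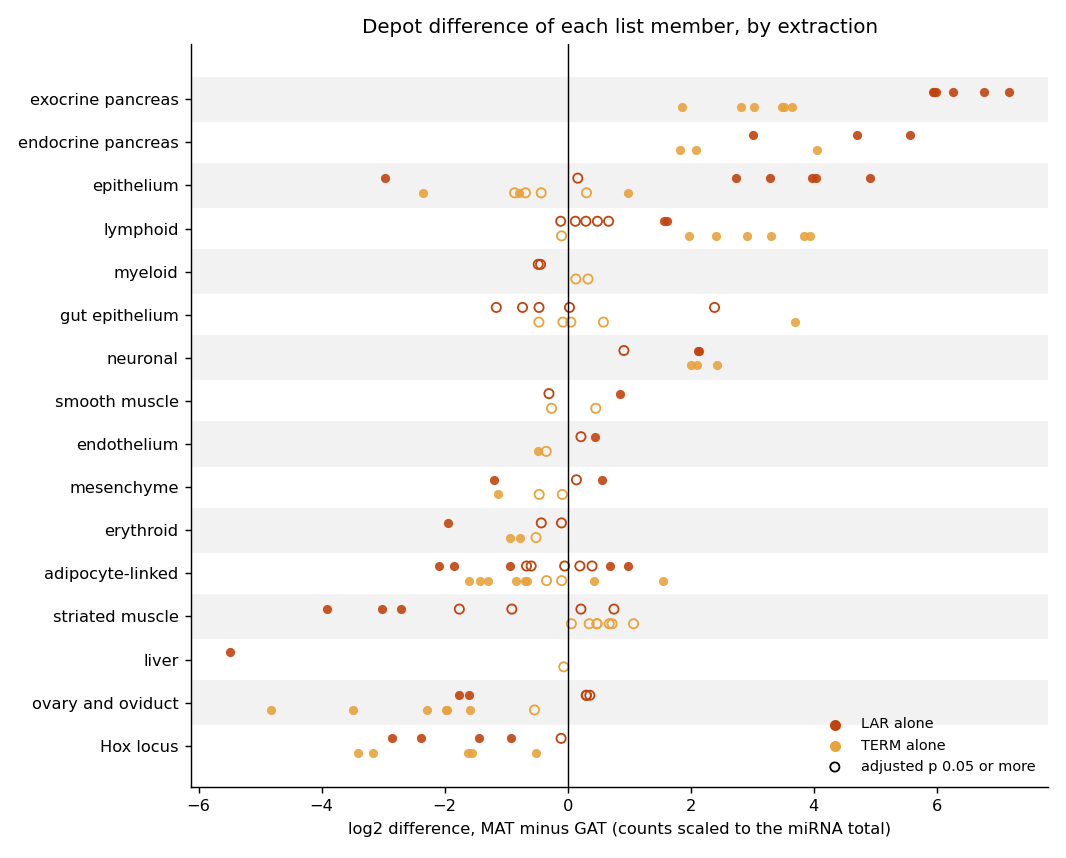
Log2 difference of MAT over GAT for each tested member of the marker lists, in LAR and in TERM fitted apart, 1 point per miRNA, open where the adjusted p was 0.05 or more. Exocrine and endocrine pancreas lie above 0 in both and higher in LAR, the lymphoid list is high in TERM, 5 members of the epithelial list are high in LAR, and the Hox list lies below 0 in both.

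Some miRNAs of ovary and oviduct were lower in MAT. Of 8 members 7 were tested, 0 were called higher and 4 lower over all libraries with a median of -1.85, where 26% of all miRNAs were lower. Without the 11 pools 6 of 7 were lower with a median of -1.74. In TERM 6 of 7 were called lower with a median of -1.98, and in LAR 2 of 6 with a median of 0.0752. mmu-miR-202-3p, a miRNA of the gonad, was detected in all 20 GAT libraries of TERM, from 0.386 to 297 CPM with a median of 4.86, and its median was 0 in MAT of both schedules and in GAT of LAR. Its difference in TERM was -4.82 (SE 0.67, adjusted p = 5.44e-07), and in LAR it was too low to be tested. mmu-miR-34b-3p and mmu-miR-34c-3p, from a locus active in ciliated cells such as those of the oviduct and airway, were lower, at -1.85 and -1.93 over all libraries, called in both schedules. Their opposite strands mmu-miR-34b-5p and mmu-miR-34c-5p were lower in TERM (-1.98 and -1.59) and not called in LAR (0.30 and 0.30). Within mice mmu-miR-34b-5p was called lower over both schedules (-0.93, adjusted p = 0.0293). mmu-miR-449a-5p was not called, and mmu-miR-449c-5p did not pass the filter. The summed level of the list was 183 to 1122 CPM in GAT of TERM and 16.6 to 1205 CPM in MAT of TERM, which overlap.

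The liver miRNA mmu-miR-122-5p was not called over all libraries, at -1.87 (SE 0.99, adjusted p = 0.0970), but was lower in MAT of LAR (-5.49), where 3 GAT libraries stood near 100000 CPM or above. In LAR outside the 11 pools it was not called (-3.33, adjusted p = 0.193), and there 13 of 15 GAT libraries had under 1000 CPM. Of the 7 striated muscle miRNAs only mmu-miR-206-3p was called, at -1.76 (SE 0.70, adjusted p = 0.0271), where 26% of all miRNAs were lower. In LAR, where 21.8% of all were lower, mmu-miR-133a-3p, mmu-miR-133b-3p and mmu-miR-206-3p were lower in MAT, at -3.02, -2.72 and -3.92. mmu-miR-1a-3p, mmu-miR-208a-3p, mmu-miR-208b-3p and mmu-miR-499-5p were not called in either schedule. Without the 11 pools 4 of the 6 that were still tested were lower in MAT, where 26.8% of all miRNAs were, with mmu-miR-133a-3p at -2.11. With the 4 GAT libraries left out as well mmu-miR-133a-3p and mmu-miR-206-3p were lower, at -1.42 and -3.59 (adjusted p = 1.69e-05 and 7.50e-10). The difference lay in most libraries, since in LAR outside the pools 15 of 17 MAT libraries had less mmu-miR-133a-3p than the lowest GAT library (3088 CPM). mmu-miR-206-3p was lower in MAT in 14 of 14 mice of each schedule outside the pools. Within mice mmu-miR-1a-3p, mmu-miR-133a-3p and mmu-miR-133b-3p were also called lower over both schedules (-1.04, -1.77 and -1.46). The highest MAT library of mmu-miR-133a-3p, HGC TERM mouse 5 in the 11 pools, had 93412 CPM, and the highest GAT library, VGC LAR mouse 3 outside them, had 277356 CPM.

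Of the miRNAs of smooth muscle, endothelium, red blood cells and mesenchyme, 4 of 10 were called, against 57.3% of all miRNAs. Of the smooth muscle pair mmu-miR-143-3p was higher in MAT by 0.66 (SE 0.17, adjusted p = 6.20e-04) and mmu-miR-145a-5p, from the same locus, was not called at -0.28 but was within mice, at -0.51 (adjusted p = 0.0395). The endothelial strands mmu-miR-126a-3p and mmu-miR-126a-5p, at medians of 16984 and 1568 CPM in MAT, were not called over all libraries (-0.13 and 0.0524), though the interaction with schedule was called for both, with mmu-miR-126a-5p at 0.45 in LAR and mmu-miR-126a-3p at -0.49 in TERM. Of the erythroid miRNAs mmu-miR-451a and mmu-miR-486a-5p were lower in MAT, at -0.60 and -1.42 and mmu-miR-144-3p was not called. Of the mesenchymal miRNAs mmu-miR-214-3p was lower, at -1.16 (SE 0.22, adjusted p = 7.53e-06), and neither strand of mmu-miR-199a was called (0.24 and -0.16). Scaled to all 7 classes instead of miRNAs, which moved the median miRNA by 0.40 toward MAT, mmu-miR-451a, mmu-miR-214-3p and the muscle miRNA mmu-miR-206-3p were no longer called.

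Of the miRNAs linked to adipocytes 1 of 10 was higher in MAT and 4 lower, where 31.3% of all miRNAs were higher and 26% lower. In LAR 2 were higher and 3 lower with a median of -0.32, where 25.3% of all miRNAs were higher and 21.8% lower. In TERM 2 were higher and 6 lower with a median of -0.68, where 24.4% of all miRNAs were higher and 17.8% lower. mmu-miR-365-3p and mmu-miR-193b-3p, neighbours at a locus that is induced when adipocytes form, were lower, at -1.85 (SE 0.27, adjusted p = 5.65e-08) and -1.56 (SE 0.31, adjusted p = 2.36e-05). mmu-miR-365-3p ranged from 337 to 27956 CPM with a median of 7810.2 in GAT of LAR and 1914 to 25148 CPM with a median of 7293 in GAT of TERM. In MAT it ranged from 372 to 7630.3 CPM with a median of 1757 in LAR and 634 to 13237 CPM with a median of 1642 in TERM, and it was lower in MAT in 35 of 38 mice. mmu-miR-378a-3p, made from an intron of the mitochondrial coactivator gene Ppargc1b, was lower, at -0.79 (adjusted p = 5.93e-04), as was mmu-miR-335-3p, at -1.01. mmu-miR-455-5p was the member called higher, at 1.27 (SE 0.26, adjusted p = 2.36e-05). mmu-miR-103-3p, mmu-miR-107-3p, mmu-miR-193a-3p, mmu-miR-335-5p and mmu-miR-455-3p were not called over all libraries, with differences from -0.25 to 0.0284. Scaled to all 7 classes, mmu-miR-378a-3p and mmu-miR-335-3p were no longer called.

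miRNAs of the Hox clusters were lower in MAT. Of 5 members 4 were called lower in MAT over all libraries with a median of -2.01, where 26% of all miRNAs were, and all 5 in TERM and without the 11 pools. mmu-miR-196a-5p ranged from 1.97 to 7391 CPM with a median of 2549 in GAT of LAR and 572 to 5918 CPM with a median of 2334 in GAT of TERM. In MAT it ranged from 61.3 to 4265 CPM with a median of 172 in LAR and 5.43 to 2255 CPM with a median of 177 in TERM. Outside the 11 pools 29 of 31 MAT libraries lay below the lowest GAT library, which stood at 572 CPM, and MAT was lower in 36 of 38 mice. Its difference was -3.12 (SE 0.38, adjusted p = 5.89e-10), -2.86 in LAR and -3.41 in TERM, and its interaction with schedule was not called (0.55, adjusted p = 0.621). The level in GAT was set apart from the other fat depots too, with medians of 2450.4 CPM in GAT, 177 in MAT, 23.0 in subcutaneous and 3.71 in brown fat, and 2881 CPM in kidney.

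mmu-miR-196b-5p, with the same seed, was lower in MAT, at -2.30 (SE 0.32, adjusted p = 2.93e-08), more so in TERM (-3.17) than in LAR (-1.45), a difference that was called (adjusted p = 0.0234). mmu-miR-10b-5p was lower, at -1.24 (SE 0.22, adjusted p = 3.10e-06), with medians of 3321 CPM in GAT and 1297 in MAT. mmu-miR-10a-5p, which has the same seed, was not called over all libraries at -0.31 (SE 0.19, adjusted p = 0.138), and was called within mice (-0.53, adjusted p = 0.0158). mmu-miR-615-3p, from the HoxC cluster, was lower, at -2.01 (adjusted p = 1.17e-06). The 2 MAT libraries that stood in the GAT range for mmu-miR-196a-5p most clearly, HGC LAR mouse 13 at 4265 CPM and VGC TERM mouse 4 at 2255 CPM, are in the 11 pools, and the first also had 23153 CPM of mmu-miR-192-5p and 8200 CPM of mmu-miR-10a-5p, both near their kidney medians of 26048 and 8843 CPM.

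The neuronal list, which holds both strands of miR-9 and mmu-miR-124-3p, was higher in MAT, all 3 called where 31.3% of all miRNAs were, with a median of 2.07 (2.44 without the 11 pools). mmu-miR-9-5p had medians of 170.5 and 143 CPM in MAT of LAR and TERM against 34.1 and 29.4 CPM in GAT, and differed by 2.07 (SE 0.34, adjusted p = 7.14e-07), nearly the same in LAR (2.13) and TERM (2.00). Its opposite strand mmu-miR-9-3p differed by 2.11. mmu-miR-124-3p, the most abundant neuronal miRNA, differed by 1.71 (SE 0.54, adjusted p = 0.00567) with medians of 152 CPM in MAT, 28.5 in GAT and 175013 in brain. In LAR alone it was not called (0.91, adjusted p = 0.335). Its median in pancreas was 233 CPM, against 166 in MAT outside the 11 pools. That of mmu-miR-9-5p was 128 CPM in pancreas and 1164 in kidney, against 169 in MAT outside the pools. Of brain miRNAs outside the list and chosen after their values were seen, mmu-miR-128-3p and mmu-miR-132-3p were not called (0.0652 and -0.28).

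The other tissues of the study served as references for the called miRNAs. Each tested miRNA was assigned to the one of 9 reference tissues with its highest median outside the 11 pools, provided that it reached 1 CPM, which uses no MAT or GAT library. Of the 248 miRNAs called higher in MAT, 51 were highest in pancreas, 70 in spleen, 49 in thymus and 51 in brain, against 92, 119, 99 and 226 of all 792 tested. Among the 201 called higher in LAR, of 770 also tested over all libraries, 55 were highest in pancreas, 43 in spleen, 15 in thymus and 56 in brain, against 92, 113, 92 and 222 of the 770. Among the 194 called higher in TERM the counts were 31, 70, 54 and 25, against 91, 119, 99 and 221 of 780. Of the 206 called lower in MAT, 5 were highest in pancreas, 9 in spleen, 29 in lung, 28 in diaphragm and 69 in brain, against 63 of all 792 in lung and 47 in diaphragm.

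A fit that also held the mean levels of the exocrine, lymphoid and gut lists constant left few calls. With those 3 lists left out of the count and p adjusted over all miRNAs, 39 of 774 miRNAs (5.04%) were called, 25 higher and 14 lower in MAT, of which 35 were also called without the covariates and 21 also without the 11 pools. The covariates differ between depots themselves, so the depot term rests on the libraries in which they overlap, and a miRNA that lost its call is not shown to be equal. Of the 25 higher, 13 had their highest reference median in brain, against 226 of the 774. mmu-miR-7b-5p kept 2.61 (SE 0.39, adjusted p = 3.90e-06) of its 4.76, and mmu-miR-9-5p kept 1.89 (SE 0.39, adjusted p = 0.00160) of 2.07. mmu-miR-138-5p and mmu-miR-384-3p kept 0.77 and 1.93 of 1.95 and 3.32. Brain was not the only reference tissue above MAT for them. Outside the 11 pools mmu-miR-138-5p had medians of 584 CPM in pancreas and 391 in MAT, and mmu-miR-384-3p of 8.30 and 3.54 CPM.

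Several brain miRNAs outside the lists were among these calls and are named after their values were seen. mmu-miR-137-3p, a regulator of neuronal maturation, had 2.47 (SE 0.39, adjusted p = 6.02e-06) with the covariates and 2.26 without them. It ranged from 6.20 to 77.6 CPM with a median of 35.9 in MAT of LAR, 4.46 to 169.9 CPM with a median of 55.6 in MAT of TERM and 0 to 14.2 CPM with a median of 6.67 in GAT of TERM, and was higher in MAT in 17 of 19 mice of each schedule. In GAT of LAR it reached 175 CPM, and 44.1 CPM outside the 11 pools. Its median in liver was 184 CPM. mmu-miR-490-5p and mmu-miR-490-3p, which heart and brain also hold, had 2.45 and 1.80, mmu-miR-873a-5p 2.11, mmu-miR-384-5p 1.53, mmu-miR-3099-3p 1.73 and mmu-miR-129-5p 1.00, all called. Their levels in MAT were low, with medians of 1.06 CPM for mmu-miR-873a-5p to 43.4 CPM for mmu-miR-129-5p outside the 11 pools, against 110.0 and 2397 CPM in brain. mmu-miR-124-3p was not called with the covariates (0.44, adjusted p = 0.797).

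On the GAT side, the calls that remained with the covariates were mmu-miR-202-3p and mmu-miR-202-5p (-3.65 and -3.06), mmu-miR-196a-5p and mmu-miR-196b-5p (-1.76 and -1.33), mmu-miR-205-5p (-1.75), mmu-miR-34b-3p and mmu-miR-34c-3p (-1.44 and -1.70) and mmu-miR-335-3p (-1.09), among 14. Of these mmu-miR-202-3p, mmu-miR-34b-3p and mmu-miR-335-3p lost the call without the 11 pools (adjusted p = 0.297, 0.0790 and 0.0548). mmu-miR-365-3p, mmu-miR-193b-3p and mmu-miR-378a-3p were not called with the covariates, at -0.49, -0.55 and -0.22, as were mmu-miR-10b-5p and mmu-miR-615-3p at -0.79 and -0.50. mmu-miR-455-5p was the adipocyte-linked miRNA that was still called higher in MAT, at 0.86 (SE 0.27, adjusted p = 0.0477), and lost the call without the 11 pools (adjusted p = 0.185).

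**Figure D4:**
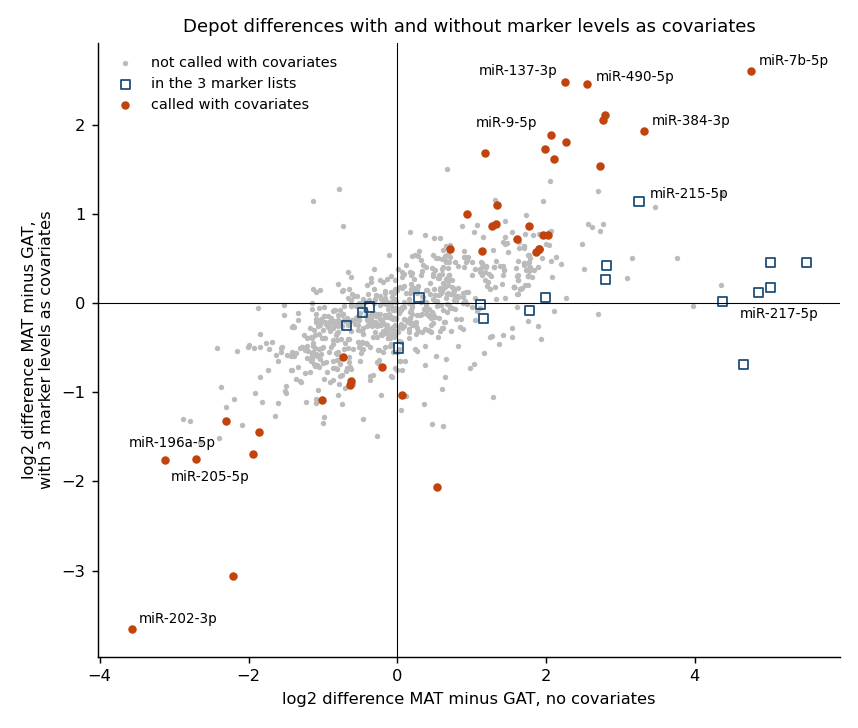
Log2 difference of MAT over GAT for each miRNA without (x axis) and with (y axis) the mean levels of the exocrine pancreas, lymphoid and gut lists held constant, with the members of those lists as open squares. Of 774 miRNAs counted with the covariates 39 are called, among them mmu-miR-7b-5p, mmu-miR-137-3p and mmu-miR-9-5p above 0 and mmu-miR-196a-5p, mmu-miR-205-5p and, not called without the 11 pools, mmu-miR-202-3p below 0.

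Among miRNAs with a log2 difference beyond 1 and the same sign in LAR and TERM, 144 were higher in MAT and 102 lower. By p, the first 10 of the higher were mmu-miR-7b-5p, mmu-miR-7a-5p, mmu-miR-138-5p, mmu-miR-7a-1-3p, mmu-miR-384-3p, mmu-miR-467a-5p, mmu-miR-467b-5p, mmu-miR-216a-3p, mmu-miR-5104 and mmu-miR-153-3p. Of the exocrine and endocrine lists they hold only mmu-miR-7b-5p, mmu-miR-7a-5p and mmu-miR-216a-3p. They also hold mmu-miR-138-5p, at 1.95 (SE 0.23, adjusted p = 4.42e-10), and mmu-miR-384-3p, at 3.32 (SE 0.41, adjusted p = 8.64e-10), whose medians in the 9 reference tissues were highest in brain. mmu-miR-153-3p, a miRNA of neurons and of endocrine pancreas, differed by 4.37 (SE 0.61, adjusted p = 2.93e-08) with medians of 183 CPM in MAT of LAR, 4.88 in MAT of TERM and under 1 CPM in GAT of both. mmu-miR-467a-5p and mmu-miR-467b-5p had identical counts in nearly every library and cannot be told apart. They differed by 1.91, and in the references were highest in thymus (481 CPM) and spleen (416 CPM). mmu-miR-5104 followed the lymphoid list, at 3.90 in TERM and 1.55 in LAR, with 75.7 CPM in spleen.

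The first 10 of the lower were mmu-miR-196a-5p, mmu-miR-196b-5p, mmu-miR-1247-5p, mmu-miR-365-3p, mmu-miR-344d-3p, mmu-miR-196a-2-3p, mmu-miR-99a-5p, mmu-miR-99b-5p, mmu-miR-744-5p and mmu-miR-664-3p. mmu-miR-1247-5p, from the imprinted region Dlk1-Dio3, differed by -2.78 (SE 0.39, adjusted p = 2.93e-08) with medians of 89.2 and 91.2 CPM in GAT of LAR and TERM and 4.77 and 12.3 in MAT. It was above 39.9 CPM in none of the 9 reference tissues. mmu-miR-99a-5p and mmu-miR-99b-5p share a seed and were lower, at -1.15 and -1.61. mmu-miR-744-5p and mmu-miR-664-3p were lower, at -1.31 and -1.40, and mmu-miR-344d-3p and mmu-miR-196a-2-3p, both under 10 CPM at the median in either depot, at -2.39 and -2.65.

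Over all libraries, no change of the depot difference with housing or age was detected. No miRNA was called for an interaction of depot with arm (0 of 792 by edgeR, 60 at an unadjusted p under 0.05, and 0 with TMM factors or with the mouse as a block) or with age (0 of 792, 81 at an unadjusted p under 0.05). Without the 11 pools 4 were called for age. In MAT of LAR the median of mmu-miR-217-5p was 4234 CPM in HGC and 6118 CPM in VGC. In MAT of TERM it was 84.9 CPM in HGC and 11.5 CPM in VGC, the other way round. The median of mmu-miR-150-5p in MAT of TERM was 56372 CPM in HGC and 53630.5 CPM in VGC.

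The classes of small RNA took different shares of the 2 depots. Fragments of tRNAs made up 51.5% ± 23.6 of the counts of 7 classes in MAT (SD, n = 38) and 73.5% ± 14.5 in GAT (SD, n = 40), a difference of -22.1 points (2-sided permutation test, adjusted p = 2.3e-05, from the smallest p that 100000 permutations can give). rRNA fragments rose from 7.86% ± 6.82 in GAT to 20.0% ± 15.8 in MAT, and snoRNA from 5.32% ± 3.90 to 10.4% ± 5.92 (SD, adjusted permutation p = 2.3e-05 for both). snRNA and lncRNA were higher in MAT by 1.87 and 1.56 points (adjusted permutation p = 0.00993 and 0.00698). miRNA took 3.42% ± 2.22 in MAT and 2.61% ± 2.21 in GAT, which was not past the threshold (adjusted permutation p = 0.114), nor was piRNA at 0.602 points (adjusted permutation p = 0.0700). Within mice both passed, with miRNA higher in MAT by 1.06 points and piRNA by 0.546 points (adjusted permutation p = 0.0123 and 0.0249).

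These shares also moved with the schedule. In LAR the tRNA share was 35.0% ± 17.2 in MAT (SD, n = 19) and 69.7% ± 18.8 in GAT (SD, n = 20), and in TERM 67.9% ± 16.5 and 77.4% ± 6.86. The rRNA share was 30.5% ± 15.9 in MAT of LAR and 9.48% ± 5.33 in MAT of TERM, against 9.19% ± 9.36 and 6.52% ± 2.04 in GAT (SD). The within-mouse difference changed between schedules by -28.90 points for tRNA and 19.01 points for rRNA (permutation of the schedule labels, adjusted p = 0.00105 and 0.00129). Outside the 11 pools the median library of pancreas had 50.7% rRNA and 8.81% tRNA, that of spleen 13.0% and 6.14%, and that of subcutaneous fat 6.36% and 71.3%. The part of other tissues in these shares was not tested.

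**Figure D5:**
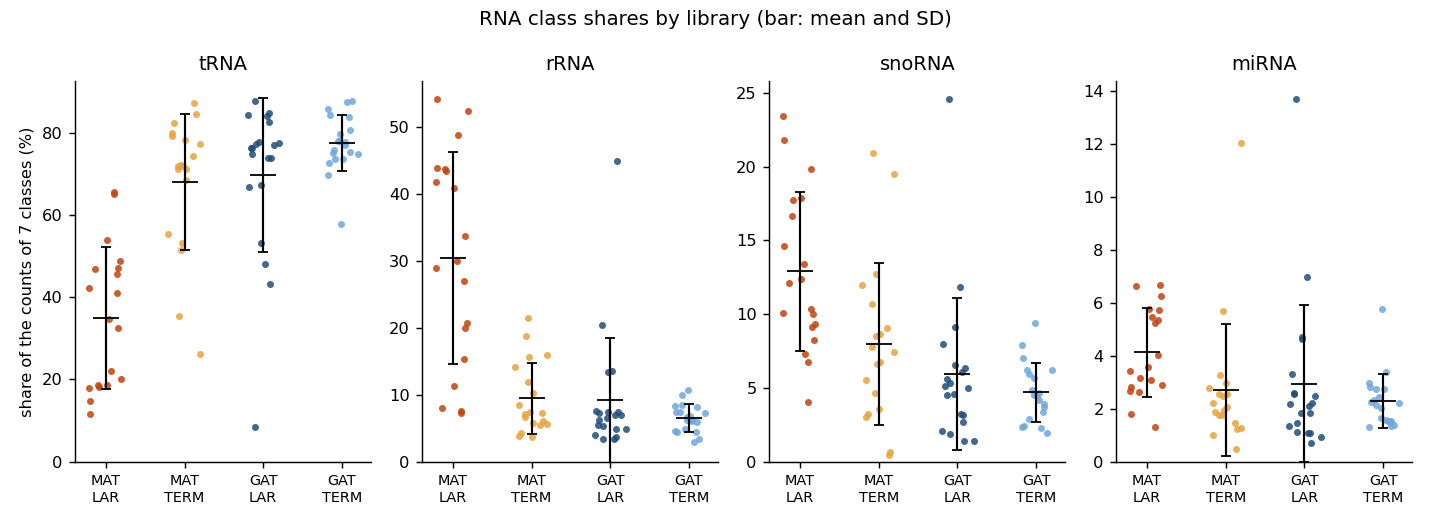
Share of counts taken by tRNA, rRNA, snoRNA and miRNA in MAT and GAT, LAR and TERM, in percent of the counts summed over 7 classes, with the mean, 1 SD and each library as a point. tRNA is the largest class in GAT of both schedules and in MAT of TERM, while in MAT of LAR rRNA comes close to it.

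Within each class, the other RNAs were scaled to their own class total, and how a class was scaled decided much of its direction. Of 404 tRNA features 378 (93.6%) were called, 307 higher in MAT and 71 lower, with a median of 0.97 over all features. With TMM factors, which set the bulk of features to no change, 296 were called, 197 higher and 99 lower, with a median of 0.36. The features are gene copies with near-identical sequence, and the 404 hold 222 distinct count profiles. By amino acid, some groups kept their direction under both scalings and others did not. Cysteine tRNAs were lower in MAT for 44 of 54 features (49 with TMM) and aspartate tRNAs for 14 of 16 (15 with TMM), and these took 3.39% and 2.62% of tRNA counts in the median GAT library. Within schedules cysteine tRNAs were lower for 37 features in LAR and 45 in TERM, but aspartate tRNAs for 0 in LAR and 14 in TERM. Lysine tRNAs were higher for 29 of 29 features (27 with TMM), leucine tRNAs for 26 of 26 (24), serine tRNAs for 22 of 22 (20), threonine tRNAs for 17 of 17 (15) and isoleucine tRNAs for 16 of 16 (15). Asparagine, histidine and methionine tRNAs were higher for all 12, 10 and 8 features under both. Glycine tRNAs were higher for 26 of 27, but with TMM for 2 and lower for 11, and proline tRNAs for 15 of 16, but with TMM for 1. Glutamate tRNAs were higher for 7 and lower for 9 of 19 features, but 0 and 11 with TMM factors, and valine tRNAs for 7 and 4 of 21, but 0 and 12. These 2 groups held 55.3% and 18.8% of tRNA counts in the median GAT library and 47.8% and 20.0% in MAT.

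Single tRNA features with the smallest p were tRNA-Gln-TTG-5-1, tRNA-Gln-TTG-2-1 and tRNA-Lys-CTT-2-1, higher in MAT by 1.74 (SE 0.25), 1.58 (SE 0.23) and 1.40 (SE 0.22), and still higher with TMM factors (1.12, 0.94 and 0.82). tRNA-Lys-CTT-2-1 had medians of 3739 and 708 CPM of tRNA counts in MAT of LAR and TERM, and 969 and 201 in GAT. tRNA-Cys-GCA-24-1, tRNA-Cys-GCA-9-1 and tRNA-Cys-GCA-12-1 were lower, at -1.17, -1.17 and -1.12. Their medians were close, at 91.3, 91.3 and 91.5 CPM of tRNA counts in GAT, but the last had a lowest GAT value of 12.3 CPM against 5.35 and 4.81.

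Calls were fewer in the remaining classes. Of 222 rRNA features 0 (0%) were called by edgeR, with 27 at an unadjusted p under 0.05 and 43, all higher, with TMM factors. Within schedules the rRNA features moved in opposite directions, with 8 higher and 129 lower of 219 in LAR and 83 higher and 1 lower of 229 in TERM. Of 736 snRNA features 19 (2.58%) were called, 18 higher, among them U7, which takes part in trimming histone messenger RNAs, at 0.87 and called in each schedule. None of the tested features of U1, U2, U5, U6, U11 and U12 was called at this scaling. With TMM factors 184 snRNA features were called, 137 higher.

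snoRNAs guide the chemical marking of rRNA. Of 739 features 118 (16%) were called, 38 higher and 80 lower in MAT, but 133 of 234 were higher with TMM factors and 164 of 268 without the 11 pools. C/D box genes were called higher for 16 and lower for 18 of 102, and H/ACA box genes for 3 and 7 of 42. Snord50b and Gm26135, which had the same counts, were lower, at -1.20 (SE 0.16, adjusted p = 2.20e-08) and Snord50a, at -1.20, both in each schedule and with TMM factors. Snord50b took medians of 3337 and 7209.7 CPM of snoRNA counts in MAT of LAR and TERM and 14176 and 15857 in GAT. Gm23246 was higher by 1.10 (SE 0.18), and Gm25156, near the floor of detection, by 1.39 (SE 0.50, adjusted p = 0.0437). Gm25156 was not called with the mouse as a block (1.17, adjusted p = 0.0683), in LAR or in TERM.

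Of 645 features annotated as piRNAs 177 (27.4%) were called, 111 higher and 66 lower, against 86 and 128 with TMM factors. piRNAs proper are RNAs of the germ line, and features of this annotation in somatic tissue can be fragments of other RNAs. piR-300 was higher by 2.00 (SE 0.26), oocyte_piRNA458 by 2.53 (SE 0.38) and piR-137072 by 2.42 (SE 0.39). oocyte_piRNA3616, piR-25665 and oocyte_piRNA2041 were lower, at -1.74, -1.12 and -1.42, each still lower with TMM factors. By schedule oocyte_piRNA3616 stood at -2.67 in LAR and -0.85 in TERM, and oocyte_piRNA2041 was called in LAR (-2.10) and not in TERM (-0.76, adjusted p = 0.0917).

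Of 2978 lncRNA transcripts 258 (8.66%) were called, 48 higher and 210 lower in MAT. With TMM factors 120 were higher and 264 lower, and within mice 405 were called, 39 higher and 366 lower. Within schedules the counts ran opposite, with 81 higher and 806 lower in LAR and 357 higher and 52 lower in TERM. Snhg1, a host transcript of snoRNAs, was higher by 1.41 (SE 0.22, adjusted p = 1.53e-05), alike in LAR (1.40) and TERM (1.42). Mir155hg, the host transcript of mmu-miR-155-5p, differed by 3.32 in TERM (adjusted p = 6.48e-07) and 0.78 in LAR (adjusted p = 0.155), close to the values of the miRNA itself, and its reads can include those of the miRNA. A230057D06Rik, Gm2044 and Gm28151 were lower, at -2.12, -2.80 and -1.59, at no more than 9.40 CPM of lncRNA counts in the median GAT library. Gm2044 was lower in TERM (-4.00) and not called in LAR (-0.78, adjusted p = 0.381).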

How the data were processed

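Small RNA libraries of MAT and GAT from ground mice were compared in 7 RNA classes. The authors made libraries with an MGIEasy kit, pooled samples for sequencing and counted reads per feature with miRMaster on GRCm39. The libraries of the series came from 44 pools over 8 plates. The deposited counts of tRNA, rRNA, snRNA, snoRNA, piRNA and lncRNA are whole read counts per feature, and blank cells were taken as 0. The deposited miRNA values were treated as estimated counts, since 0.784% of them were not whole, and these were rounded. How reads with several matches were divided is not given in the sources used here. No molecular identifiers were used, so counts are not independent molecules. The 229 columns of flight libraries in each file, and the files of circRNA and scaRNA, were not used.

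Each class was scaled to its own total. Features with at least 5 counts in at least 10% of the MAT or of the GAT libraries were tested with edgeR's quasi-likelihood test (edgeR 4.0.16, R 4.3.3), with the 8 strata of arm, schedule and age and the depot as terms and Benjamini-Hochberg adjustment within the class. Interactions of depot with schedule, arm and age were tested in the same model. Shares of counts were compared by 2-sided permutation tests (100000 permutations, scipy 1.17.1), adjusted over the 7 classes. Named were all members of 16 lists of marker miRNAs and, of features called with a log2 difference beyond 1 and 1 sign in both schedules, the 10 miRNAs or 3 other features with the smallest p in each direction. Brain miRNAs outside this rule are said to be so. The members, lists and 11 pools were chosen with earlier results of these data known.

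MAT and GAT carry the same mouse numbers because both were cut from the same animals. Within the 38 mice the miRNA deviations of the depots from their group means correlated from -0.632 to 0.308 (median -0.0607, above 0.1 in 9), and the mouse as a block was an alternative fit. Other alternatives were TMM factors, DESeq2 1.42.0, a rank-sum test on CPM of all 7 classes (rpmm), other filters, plate as a factor, marker levels as covariates, single arms, ages or schedules, and the libraries outside the 11 pools. Mature miRNA sequences came from RefSeq (GRCm38.p6). Scripts were tested on simulated counts.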

Additional observations from a re-analysis of the deposited data

Results flagged for a closer look

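In groups of 9 or 10 libraries of one depot, arm and schedule, 23 values of 80 groups and measures lay farther from the rest than Dixon's 95% limit, where chance would give about 1 in 20, and 21 of them were in the 11 pools. The level of mmu-miR-217-5p was the highest of its group in GAT of HGC LAR mouse 14 (384 CPM, others up to 65.1), HGC TERM mouse 4 (42.2, others up to 14.6) and VGC LAR mouse 1 (16549.7, others up to 8.15). The level of mmu-miR-192-5p was so in GAT of HGC LAR mouse 5 (25164 CPM) and VGC LAR mouse 4 (93812 CPM), and in MAT of HGC LAR mouse 13 (23153 CPM) and VGC TERM mouse 5 (87392 CPM). GAT of HGC LAR mouse 14 stood apart in 5 shares, with miRNA at 6.97%, tRNA at 48.0%, the lowest of its group, rRNA at 13.6%, snoRNA at 11.8% and lncRNA at 8.30%. GAT of VGC LAR mouse 4 stood apart with miRNA at 13.7%, snRNA at 18.1%, snoRNA at 24.6% and lncRNA at 12.4%, and GAT of HGC TERM mouse 4 with miRNA at 5.75% and snRNA at 8.27%. GAT of VGC LAR mouse 1 had 44.9% rRNA. In MAT, VGC TERM mouse 5 had 12.0% miRNA and 13.8% lncRNA, HGC LAR mouse 13 had 15.3% snRNA, and HGC TERM mouse 14, outside the pools, had 0.499% miRNA, the lowest of its group. The level in GAT of HGC LAR mouse 5 was also outside the pools.

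The depot difference differed between LAR and TERM, by edgeR's interaction test over all miRNAs, for 29 of 87 named miRNAs, against 156 of all 792 (19.7%). Values here are the log2 difference of MAT over GAT in LAR less that in TERM. It was negative for the lymphoid miRNAs mmu-miR-150-5p (-2.52), mmu-miR-142a-3p (-2.23), mmu-miR-142a-5p (-2.38), mmu-miR-155-5p (-2.64), mmu-miR-342-3p (-1.68) and mmu-miR-146a-5p (-2.43), and for mmu-miR-5104 (-2.36). It was positive for the epithelial miRNAs mmu-miR-200a-3p (4.46), mmu-miR-200b-3p (4.66), mmu-miR-200c-3p (2.98), mmu-miR-141-3p (3.94), mmu-miR-429-3p (3.60) and mmu-miR-203-3p (0.96), and for mmu-miR-153-3p (3.00). For the miRNAs of ovary and oviduct it was 5.20 (mmu-miR-202-5p), 3.62 (mmu-miR-202-3p), 2.29 (mmu-miR-34b-5p) and 1.89 (mmu-miR-34c-5p). The miRNA mmu-miR-202-5p was at 0 in all 20 GAT libraries of LAR and in 15 of 19 MAT libraries of LAR, and mmu-miR-202-3p had a median of 0 in both, so their fitted values depend on the prior count and are no bound. For liver and muscle miRNAs it was -5.42 (mmu-miR-122-5p), -3.50 (mmu-miR-133a-3p), -3.19 (mmu-miR-133b-3p) and -3.97 (mmu-miR-206-3p). With the 11 pools and the 4 GAT libraries of LAR high in liver or muscle miRNAs left out, it was -2.11 for mmu-miR-133a-3p and -1.72 for mmu-miR-133b-3p, both still called, not called for mmu-miR-206-3p (-1.53), and of the other sign for mmu-miR-122-5p (2.14, adjusted p = 0.0413). The rest were mmu-miR-126a-3p (0.71), mmu-miR-126a-5p (0.80), mmu-miR-193a-3p (1.54), mmu-miR-103-3p (0.90), mmu-miR-455-3p (-1.11), mmu-miR-196b-5p (1.72) and mmu-miR-744-5p (-1.01). Among the class shares the within-mouse difference of LAR less TERM was -28.9 points for tRNA, 19.0 for rRNA, 4.77 for snoRNA and 2.60 for lncRNA (permutation of schedule labels, adjusted p = 0.00105, 0.00129, 0.0326 and 0.0131).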

How the results depend on the processing

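The miRNA calls (454) stayed within 1.5 times under most alternatives, with 438 for the mouse as a replicate block (229 higher and 209 lower in MAT), 488 for DESeq2 and 450 for plate as a factor, but 240 in VGC alone, 39 with the 3 marker levels as covariates and 50 with these and without the 11 pools. tRNA calls (378) fell to 244 in TERM without the 11 pools. rRNA calls (0) came to 43 with TMM factors, 137 in LAR, 84 in TERM, and 71 and 110 in these without the 11 pools. snRNA calls (19) came to 184 with TMM factors, 54 in TERM with or without the 11 pools, and 8 without the pools and the 4 GAT libraries high in liver or muscle miRNAs. snoRNA calls (118) came to 234 with TMM factors, 268 without the 11 pools, 45 in TERM, 202 in TERM without the pools, and 251 without the pools and the 4 libraries. piRNA calls (177) came to 83 with no filter and 273 without the pools. lncRNA calls (258) came to 405 with the replicate block, 887 in LAR, 409 in TERM, 760 and 696 in these without the pools, and 109 without the pools and the 4 libraries. Calls of the interaction with age (0) came to 4 without the pools, with or without the 4 libraries.

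Of the shares, miRNA (0.805 points) passed the threshold at 1.06 with the replicate block and 0.772 without the pools, and piRNA (0.602 points) at 0.546, 0.776 and, in TERM, 0.988. In TERM snRNA (1.29) and lncRNA (0.502) did not pass. The correlation of exocrine and lymphoid levels (-0.26) was past the threshold without the pools (-0.47) and 0.22 in TERM. That of exocrine and gut levels (0.0826) was -0.0638 in LAR.

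Among the named miRNAs, these values changed sign with a call in one of the fits. In LAR mmu-miR-150-5p was -0.11 (-0.16 without the pools), mmu-miR-193a-3p 0.69 (0.98 without the pools) and, without the pools, mmu-miR-449a-5p 0.77. In TERM mmu-miR-200a-3p was -0.43 (-0.33 without the pools), mmu-miR-200b-3p -0.69 (-0.74), mmu-miR-206-3p 0.0609 and mmu-miR-455-3p 0.44 (0.51). In TERM without the pools mmu-miR-200c-3p was -0.0313 and mmu-miR-429-3p -1.10. With the covariates and without the pools mmu-miR-200a-3p was -1.27, mmu-miR-200b-3p -1.30, mmu-miR-200c-3p -0.62, mmu-miR-141-3p -0.63 and mmu-miR-664-3p 0.0333. By the rank-sum test on rpmm mmu-miR-192-5p was 1.64 and mmu-miR-202-5p 0. The cause was not tested. Another 116 values changed sign with no call in either fit. The others kept their direction, 1454 with the same call, 88 gaining and 98 losing it. Beside the calls given with the results, the replicate block changed no call of a named miRNA. Depth limits the low strands, where a MAT library of 0.181 M miRNA counts gives single counts at several CPM.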
